A study of Drosophila melanogaster with 17 samples.

Results

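The genes described here are 10 Drosophila melanogaster genes named for, or known for, induction by the moulting hormone ecdysone: ImpE1, ImpE2, ImpE3, ImpL1, ImpL2, Cyp18a1, Eip71CD, Eip63E, Eip55E and Blimp-1. Every probe set annotated with 1 of these symbols and no other was taken, which gave 12 probe sets of 10 genes, out of the 10826 genes that had one. ImpE1 and ImpE3 have more than 1 probe set each. Eip71CD and Eip55E carry the current symbols MsrA and Cth.

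Messenger RNA was measured on Affymetrix Drosophila arrays in mushroom body neurons, brain neurons that serve olfactory learning and of which the gamma class prunes its larval axon branches in the young pupa. Cell bodies were cut by laser from frozen sections of 15 µm, with about 100 cell bodies a capture and 40 captures pooled per array. The groups are 7 arrays of larvae in the third instar with dark blue guts, staged about 18 h before puparium formation by bromophenol blue in the food (-18 h), 7 of newly formed white prepupae (0 h) and 3 of such prepupae aged for 5 h (5 h). Animals of all 3 groups had the genotype yw;UAS-mCD8::GFP/+;;OK107-GAL4, so membrane GFP and the driver were present throughout, and OK107-GAL4 marks all classes of mushroom body neuron, not the gamma class alone. The labels call the arrays biological replicates but do not give the number of animals in a pool, and p-values measure the spread between such pools.

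Ecdysone binds a heterodimer of the nuclear receptors EcR and Usp, which switches on early transcription factors that in turn act on late genes. The pulse at the end of larval life starts metamorphosis, and in gamma neurons EcR is needed for axon pruning. The Imp genes were isolated from imaginal discs as messages of membrane-bound ribosomes that ecdysone raises early (E) or late (L), and the Eip genes as ecdysone-induced proteins or transcripts, most of them outside the nervous system.

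Values are log2 RMA summaries, so a difference of 1 is a doubling, and levels of different probe sets are not compared. A level is called dim where a group mean lay under that group's array median over all probe sets (4.38 at -18 h, 4.36 at 0 h and 4.33 at 5 h). By that measure 3 of the 12 probe sets were dim in every group, 4 in some and 5 in none. The mushroom body marker ey ran from 8.42 to 9.23 over all 17 arrays, and the neuronal marker elav from 3.50 to 5.57. Other mushroom body markers moved: of 13 measured, 1 was higher and 4 lower at 0 h than at -18 h. Over all probe sets, 13.6% were higher and 11.9% lower in that comparison. Among the lower markers were the vesicular transporter gene prt (-2.59) and the dopamine receptor gene Dop1R1 (-0.91), and the higher one was mamo (0.83). At 5 h against -18 h, 2 of the 13 were higher, toy (1.08) and DAT (0.97), and 3 were lower. Over all probe sets, 20.0% were called in that comparison. At 5 h prt was 19.9-fold lower than at -18 h. The mean of the 13 ran from 5.89 to 6.23 at -18 h, from 5.78 to 5.9965 at 0 h and from 5.69 to 5.81 at 5 h. Genes known from other tissues were high in some arrays. These were salivary glue genes in 3 larval arrays and the muscle gene Mlc2 in 2. The cuticle protein gene Cpr78E was high in larval arrays 5, 6 and 7 and in 5 h array 3. Whether those arrays held RNA of other tissues was not tested. The mean of the spike-in controls lay under 9.10 in all 3 arrays at 5 h, in 4 of 7 at 0 h and in 3 of 7 at -18 h, and a fit is called within a spike-in set where it used arrays on 1 side of that value. In such bulk samples, a change in the number of cells of a type and a change in RNA per cell cannot be told apart.

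**Figure D1:**
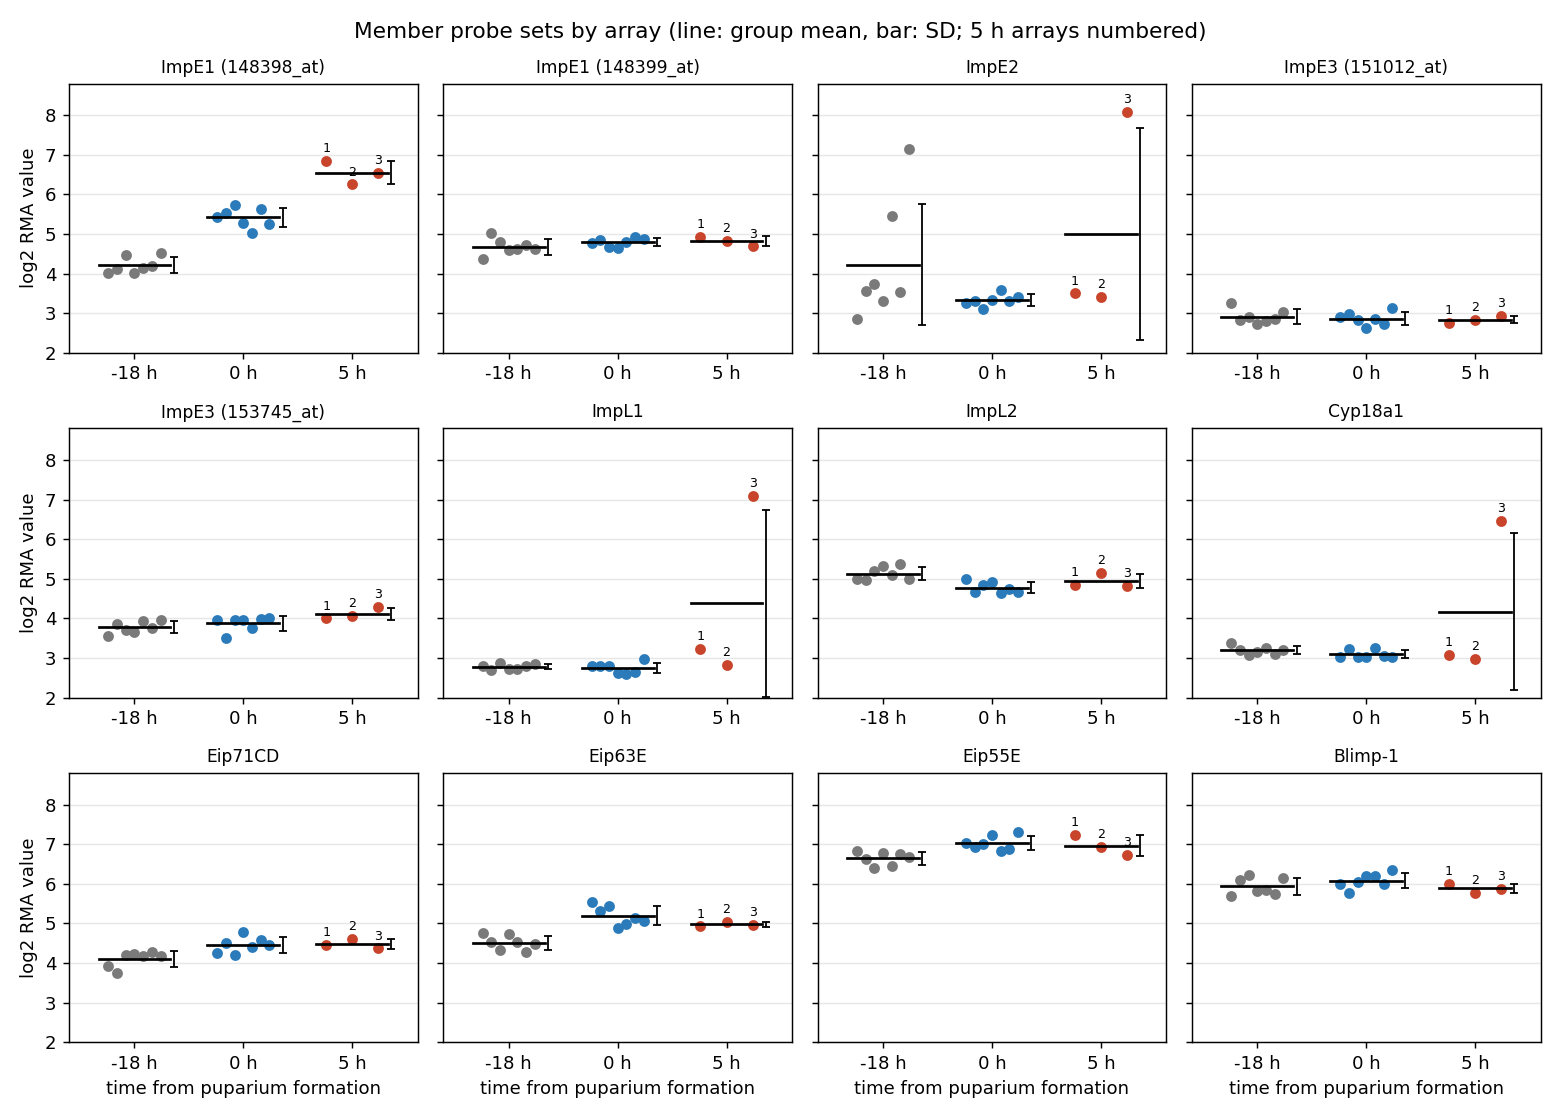
Level (log2 RMA value) of each of the 12 probe sets on every array at -18 h, 0 h and 5 h, with the group mean as a line, its SD as a bar and the 5 h arrays numbered. ImpE1 (148398_at) climbed at each time, while ImpE2, ImpL1 and Cyp18a1 stood high in array 3 alone among the 5 h arrays.

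ImpE1, an early gene that codes for a protein with low-density lipoprotein receptor repeats, was higher at each later time. Its probe set 148398_at read 4.01, 4.15 and 4.53 (lowest, median and highest) at -18 h, 5.04, 5.44 and 5.74 at 0 h, and 6.84, 6.26 and 6.54 in 5 h arrays 1, 2 and 3. No 2 of the 3 groups overlapped. The group means were 4.21 ± 0.209 at -18 h, which is dim, 5.42 ± 0.245 at 0 h and 6.55 ± 0.293 at 5 h (SD over 7, 7 and 3 arrays).

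ImpE1 was 2.31-fold higher at 0 h than at -18 h (log2 difference 1.21, SE 0.12, 95% interval 0.96 to 1.45, limma adjusted p = 6.2e-08). It was a further 2.19-fold higher at 5 h than at 0 h (1.13, SE 0.15, adjusted p = 7.09e-05), and 5.04-fold higher at 5 h than at -18 h (2.33, SE 0.15, adjusted p = 3.06e-10). ImpE1 was the member with the largest called difference in each of these comparisons. All 3 calls held under every alternative run, with differences of 1.03 to 1.38 for the first step and 0.98 to 1.27 for the second.

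The second ImpE1 probe set, 148399_at, did not follow. It read 4.37, 4.62 and 5.03 (lowest, median and highest) at -18 h, 4.66, 4.79 and 4.92 at 0 h, and 4.93, 4.82 and 4.69 in 5 h arrays 1, 2 and 3, so the groups overlapped throughout. The difference of 5 h from -18 h was 0.14 (95% interval -0.09 to 0.37, limma adjusted p = 0.414), an interval that does not reach the 2.33 of the first probe set. Which transcripts each probe set detects was not tested.

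The relatives ImpE2 and ImpE3 gave no such pattern. ImpE3, which codes for a small secreted protein, was dim at all 3 times on both of its probe sets. The probe set 153745_at read 4.002, 4.06 and 4.28 in the 5 h arrays, above the 3.97 that was highest at -18 h, and was 1.26-fold higher at 5 h than at -18 h (log2 difference 0.34, SE 0.11, limma adjusted p = 0.0404). That call was lost in 11 of the alternatives, among them those without larval array 1, 3, 4 or 6 and without 5 h array 1, 2 or 3, and the adjusted p over all of its alternatives ran from 0.0139 to 0.227. The other, 151012_at, stayed between 2.64 and 3.27 on all arrays, and its 3 differences were -0.05, -0.03 and -0.08.

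ImpE2, ImpL1 and Cyp18a1 had in common 1 array of the 5 h group. ImpE2, an early gene that codes for a secreted protein of the apical disc surface, read 3.50 and 3.41 in 5 h arrays 1 and 2 and 8.08 in array 3, against 3.10, 3.31 and 3.59 (lowest, median and highest) at 0 h. ImpL1, a late gene, read 3.22, 2.82 and 7.09 in the 5 h arrays, against 2.59, 2.79 and 2.98 at 0 h. Cyp18a1, a cytochrome P450 that inactivates ecdysteroids by 26-hydroxylation, read 3.08, 2.97 and 6.46 in the 5 h arrays, against 3.01, 3.03 and 3.25 at 0 h.

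By their group means, ImpE2 and ImpL1 were dim at -18 h and 0 h, and Cyp18a1 at all 3 times. Array 3 raised the 5 h means. In 5 h arrays 1 and 2 all 3 genes lay under the array median of 4.33, and in array 3 they lay above it. In all 3 genes array 3 was far above every array at 0 h, and arrays 1 and 2 lay within or close to the 0 h range. Of these, ImpL1 in 5 h array 1 stood above the highest array at 0 h and the highest at -18 h (2.88). Array 3 exceeded the higher of the other two 5 h arrays by 4.58 for ImpE2, 3.87 for ImpL1 and 3.37 for Cyp18a1. For the other 9 probe sets that gap ran from -0.51 (Eip55E) to 0.22 (ImpE3). Over all 13966 probe sets, array 3 stood at least 2 log2 units above both other 5 h arrays in 26 (0.186%), array 2 in 2 (0.0143%) and array 1 in 0, and 3 of the 12 probe sets described here were among the 26.

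**Figure D2:**
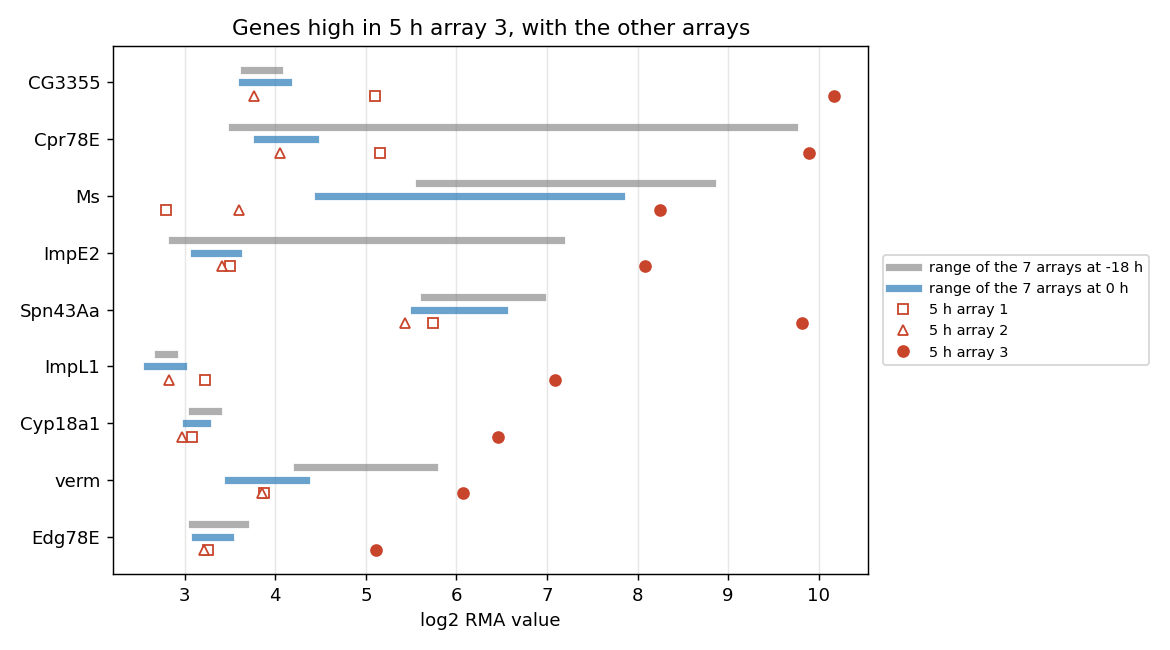
Level (log2 RMA value) in each 5 h array, beside the range of the 7 arrays at -18 h and at 0 h, for the 5 genes that array 3 raised most over both other 5 h arrays and for ImpL1, Cyp18a1, verm and Edg78E. Array 3 lay to the right of every array at 0 h in all 9 genes.

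The fitted group differences of these genes depended on that array. The mean of ImpE2 was 1.67 higher at 5 h than at 0 h with it (95% interval -0.04 to 3.38, limma adjusted p = 0.375) and 0.13 higher without it. ImpL1 was 1.63 higher with it (adjusted p = 0.095) and 0.27 higher without it. Cyp18a1 was 1.08 higher with it (adjusted p = 0.239) and 0.07 lower, a difference of -0.07, without it. Against -18 h, ImpL1 passed the threshold at 5 h (1.60, adjusted p = 0.0341), and without array 3 it did not (0.24, adjusted p = 0.189), nor without larval array 2 (1.58, adjusted p = 0.0528). In all, that call was lost in 11 of 28 alternatives, also with a robust fit (adjusted p = 0.0859), array weights (0.0901), the 2 groups fitted alone (0.107), or when larval arrays were left out for glue genes (0.0672) or for muscle genes (0.0548). Cyp18a1 did not pass against -18 h (0.97, adjusted p = 0.131), but it did without 5 h array 1 (1.52, adjusted p = 0.0313) or array 2 (1.57, adjusted p = 0.0209), which leaves array 3 as 1 of 2 arrays at 5 h. Likewise ImpL1 passed against 0 h without array 1 (2.21, adjusted p = 0.0404) or array 2 (2.41, adjusted p = 0.0126).

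**Figure D3:**
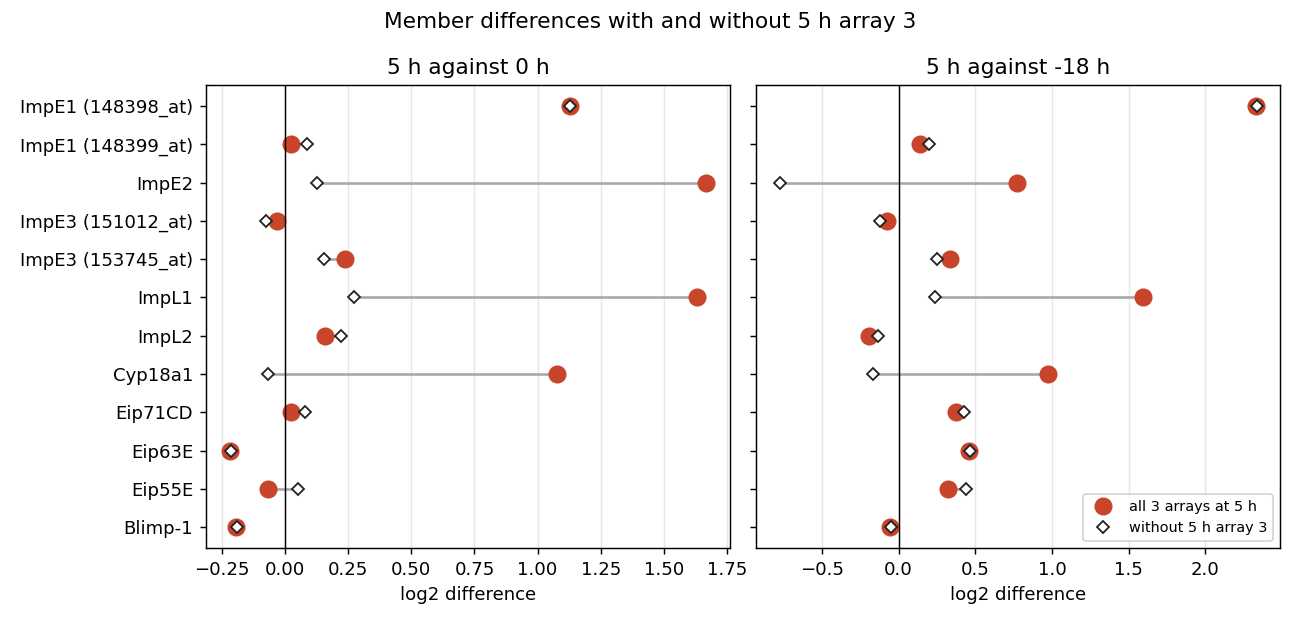
Fitted log2 difference of 5 h from 0 h and from -18 h for each of the 12 probe sets, with all 17 arrays and without 5 h array 3. All 3 of ImpE2, ImpL1 and Cyp18a1 had lower values without that array, and against -18 h ImpE2 (-0.77, and 0.77 with it) and Cyp18a1 went below 0, while ImpE1 (148398_at) stayed above 1 in both panels.

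The genes with the largest gap of array 3 over both other 5 h arrays were CG3355 (10.17, against 5.10 and 3.76 in 5 h arrays 1 and 2), the cuticle protein gene Cpr78E (9.90, against 5.16 and 4.05), the neuropeptide gene Ms (8.24, against 2.79 and 3.60), ImpE2 and the serpin gene Spn43Aa (9.82, against 5.74 and 5.43). Genes of chitin and cuticle that were picked after their values were seen also stood high in it: the chitin-binding protein gene obst-A (8.34, against 5.08 and 4.92), the chitinase gene Cht5 (7.63, against 5.55 and 5.45), the chitin deacetylase gene verm (6.08, against 3.88 and 3.86) and the ecdysone-dependent cuticle gene Edg78E (5.12, against 3.26 and 3.22). Of 12 listed cuticle and epidermis markers 1 (Edg78E) lay at least 1 log2 unit above both other 5 h arrays in array 3. The same held for 1 of 6 tracheal markers (verm) and 0 of 8 imaginal disc markers. Over all probe sets the share was 0.480%, which is under that of the cuticle and of the tracheal list, each with 1 such gene.

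The mean of the cuticle and epidermis list was 4.88 in array 3, against 4.72 and 4.67 in 5 h arrays 1 and 2, between 4.74 and 4.84 at 0 h and between 4.65 and 4.95 at -18 h. That of the tracheal list reached 4.34 in array 3 and ran from 3.79 to 4.08 at 0 h and from 3.88 to 4.73 at -18 h. The other 10 of 12 marker lists, which cover glia, fat body, muscle, hemocytes, salivary gland and 5 further tissues or cell states, had 0 genes that far above in array 3. The marker ey was 8.69 in array 3, against 8.73 and 8.81 in the other two, and its spike-in mean, 8.34, was the lowest of the 17. The part of another tissue in the 3 high genes was not tested.

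ImpE2 was also high in 2 larval arrays. It read 2.86, 3.55, 3.75, 3.31, 5.45, 3.54 and 7.15 in larval arrays 1 to 7, while 0 h arrays stayed within 3.10 to 3.59. The larval arrays with 5.45 and 7.15, arrays 5 and 7, were among the 3 in which Cpr78E was high (6.25, 9.73 and 8.46 in arrays 5, 6 and 7). Array 6, which had the highest larval Cpr78E, had an ImpE2 level of 3.54, in the middle of the rest. ImpL1 and Cyp18a1 did not move in those larval arrays: at -18 h they reached at most 2.88 and 3.37. With all arrays, ImpE2 was -0.90 log2 units different at 0 h from -18 h (limma adjusted p = 0.35), which came to -0.41 without larval array 7 and to -0.036 without the 4 arrays with Cpr78E signal, and it passed the threshold in no comparison.

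**Figure D4:**
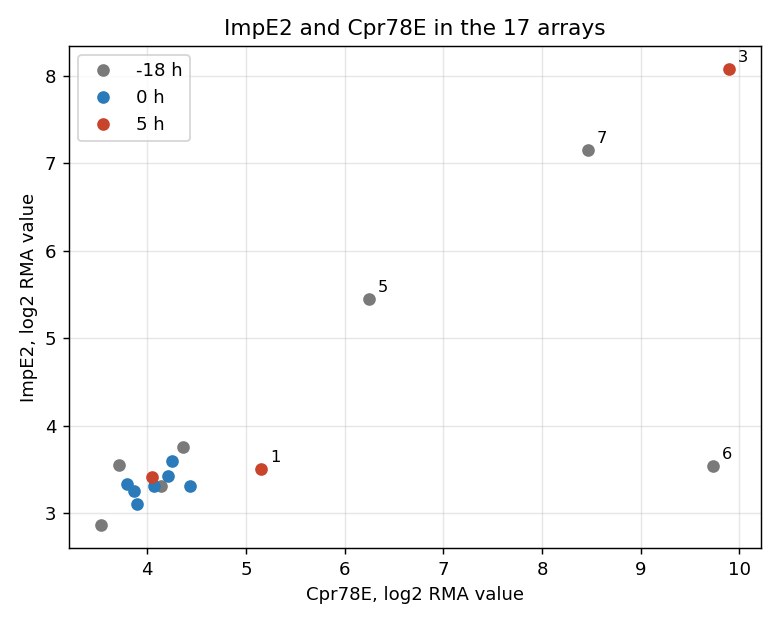
Level of ImpE2 against level of Cpr78E (both log2 RMA values) on each of the 17 arrays. The arrays with Cpr78E above 6 are larval arrays 5, 6 and 7 and 5 h array 3, and ImpE2 was above 5 in 3 of these 4.

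In the RefSeq gene table of the Release 6 assembly, ImpE2 and Eip63E are neighbours with 0 protein-coding genes between them, and so are Cyp18a1 and phm (phtm), a cytochrome P450 gene of ecdysone synthesis. The neighbours did not share the high level in array 3. Eip63E read 4.97 in it, against 4.92 and 5.05 in 5 h arrays 1 and 2, and phm read 4.85, against 5.07 and 4.77.

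Eip63E, a cyclin-dependent kinase that is activated by cyclin Y, was next to ImpE1 the member with the largest rise at 0 h. It read 4.89, 5.14 and 5.55 (lowest, median and highest) at 0 h, against 4.29, 4.52 and 4.75 at -18 h. No array of the 0 h group fell within the -18 h range. It was 1.60-fold higher at 0 h (log2 difference 0.68, SE 0.10, limma adjusted p = 1.85e-05).

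At 5 h Eip63E read 4.92, 5.05 and 4.97, inside the 0 h range and above the -18 h range. The difference from 0 h was -0.22 (adjusted p = 0.508). The difference from -18 h was 0.46 (SE 0.13, limma adjusted p = 0.0143), a call that was lost in 5 of the alternatives, 1 of them without 5 h array 2 (0.43, adjusted p = 0.077). A further probe set that the annotation shares between CG10038 and Eip63E averaged 8.02 at -18 h, 8.22 at 0 h and 8.21 at 5 h, with no called difference.

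Its partner cyclin Y (CycY) was also higher at 0 h, with 4.09 ± 0.196 at 0 h against 3.65 ± 0.240 at -18 h (SD over 7 arrays each, log2 difference 0.43, limma adjusted p = 0.00326). CycY was dim at each time, with a mean of 3.95 at 5 h. Among 8 measured genes of cyclin-dependent kinases and CycY, 5 were higher and 1 lower at 0 h than at -18 h. Over all probe sets, 13.6% were higher and 11.9% lower. Between 5 h and 0 h, 0 of the 8 were called by limma (1 at an unadjusted p under 0.05), beside 3.77% of all probe sets. At 5 h against -18 h, 4 of the 8 were higher and 1 lower, beside 20.0% of all probe sets called. Cdk9, a kinase of transcription elongation, rose by 0.59 at 0 h, and Cdk4, a kinase of the cell cycle, fell by 0.65. The median difference of the list was 0.33 at 0 h against -18 h, beside -0.02 over all genes.

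Eip71CD and Eip55E, a pair of enzymes of sulphur amino acids, were modestly higher at 0 h. Eip71CD, the methionine sulphoxide reductase that repairs oxidised methionine, read 4.20, 4.45 and 4.78 (lowest, median and highest) at 0 h, against 3.74, 4.19 and 4.29 at -18 h. The groups overlapped between 4.20 and 4.29, and the difference was 0.35 (SE 0.10, limma adjusted p = 0.01). Eip55E, cystathionine gamma-lyase, which makes cysteine, read 6.84, 7.01 and 7.32 at 0 h, against 6.40, 6.69 and 6.83 at -18 h, without overlap, and was 1.31-fold higher (0.39, SE 0.10, limma adjusted p = 0.00377).

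Neither enzyme was called between 5 h and 0 h, with Eip71CD at 4.45, 4.62 and 4.37 and Eip55E at 7.24, 6.93 and 6.73 in the 5 h arrays. Their differences of 5 h from 0 h were 0.02 (adjusted p = 0.964) and -0.07 (adjusted p = 0.89). Against -18 h, Eip71CD passed at 5 h (0.37, SE 0.13, limma adjusted p = 0.0403) and Eip55E did not (0.32, adjusted p = 0.0734). The first of these calls was lost without larval array 1 or 2 or any 1 of the 5 h arrays (adjusted p from 0.0589 to 0.206), and Eip55E passed without 5 h array 3 (0.44, adjusted p = 0.0351). The call of Eip71CD at 0 h was lost within the lower spike-in set (0.20, adjusted p = 0.384). That of Eip55E kept its size but not its call within the lower (0.39, adjusted p = 0.0573) and the higher set (0.38, adjusted p = 0.106).

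Of 6 other measured genes of sulphur amino acids and methionine repair, 1 was called at 0 h against -18 h: Ahcy, adenosylhomocysteinase, fell by 0.68 (limma adjusted p = 9.61e-07). At 5 h against -18 h, 2 of the 6 were higher and 1 lower, beside 20.0% of all probe sets called. Cbs, cystathionine beta-synthase, which makes the substrate of Eip55E, rose by 0.63 in that comparison (limma adjusted p = 0.000897). Sam-S, the methionine adenosyltransferase, rose by 0.38 (adjusted p = 0.0287), and Ahcy was lower (-0.62, adjusted p = 0.000146). The second methionine sulphoxide reductase, SelR, had a difference of -0.03 at 0 h against -18 h (adjusted p = 0.885). By limma 0 of the 6 were called between 5 h and 0 h, with 2 at an unadjusted p under 0.05. Over all probe sets, 25.5% were called at 0 h against -18 h and 3.77% at 5 h against 0 h.

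ImpL2 was the 1 member called lower at 0 h than at -18 h. It codes for a secreted immunoglobulin-domain protein that binds insulin-like peptides and dampens insulin signalling. It read 4.63, 4.74 and 4.98 (lowest, median and highest) at 0 h, against 4.97, 5.09 and 5.37 at -18 h, with overlap at the edge alone. It was 1.28-fold lower at 0 h (log2 difference -0.36, SE 0.08, limma adjusted p = 0.00296). The 5 h arrays read 4.85, 5.15 and 4.82, and neither comparison with 5 h was called (0.16 against 0 h, adjusted p = 0.592, and -0.20 against -18 h, adjusted p = 0.23).

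In the insulin pathway 13 of 22 listed genes were measured, and 3 were higher and 2 lower at 0 h than at -18 h. Over all probe sets, 13.6% were higher and 11.9% lower in that comparison. Pdk1, the kinase that activates Akt and S6k, rose 4.50-fold at 0 h (log2 difference 2.17, limma adjusted p = 4.8e-10) and was lower at 5 h than at 0 h by 1.63 (a difference of -1.63, adjusted p = 1.86e-05). S6k rose by 0.61 at 0 h and Tsc1, an inhibitor of the pathway, fell by 0.33. The insulin receptor gene InR averaged 3.66 at 0 h and 3.61 at -18 h (adjusted p = 0.788). Between 5 h and 0 h 0 genes of the list were higher and 2 lower (Pdk1 and the adaptor chico, -0.34), beside 3.77% of all probe sets called. Between 5 h and -18 h 1 was lower, the insulin-binding decoy receptor gene Sdr (-0.34, adjusted p = 0.0497), beside 20.0% of all probe sets called.

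Blimp-1, a zinc-finger repressor that ecdysone induces and that delays ftz-f1 in the prepupa, was measured above the dim level at all 3 times and was called in no comparison. It read 5.69, 5.86 and 6.21 (lowest, median and highest) at -18 h, 5.76, 6.06 and 6.36 at 0 h, and 6.004, 5.78 and 5.88 in the 5 h arrays. The 3 ranges overlapped. Its differences were 0.14 at 0 h against -18 h (limma adjusted p = 0.341), -0.19 at 5 h against 0 h (0.564) and -0.05 at 5 h against -18 h (0.808). The gene it represses, ftz-f1, a nuclear receptor gene of the mid-prepupa, was dim at all times (2.95 ± 0.246 at 5 h, n = 3, and 2.63 ± 0.150 at 0 h, n = 7, SD, limma adjusted p = 0.286).

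**Figure D5:**
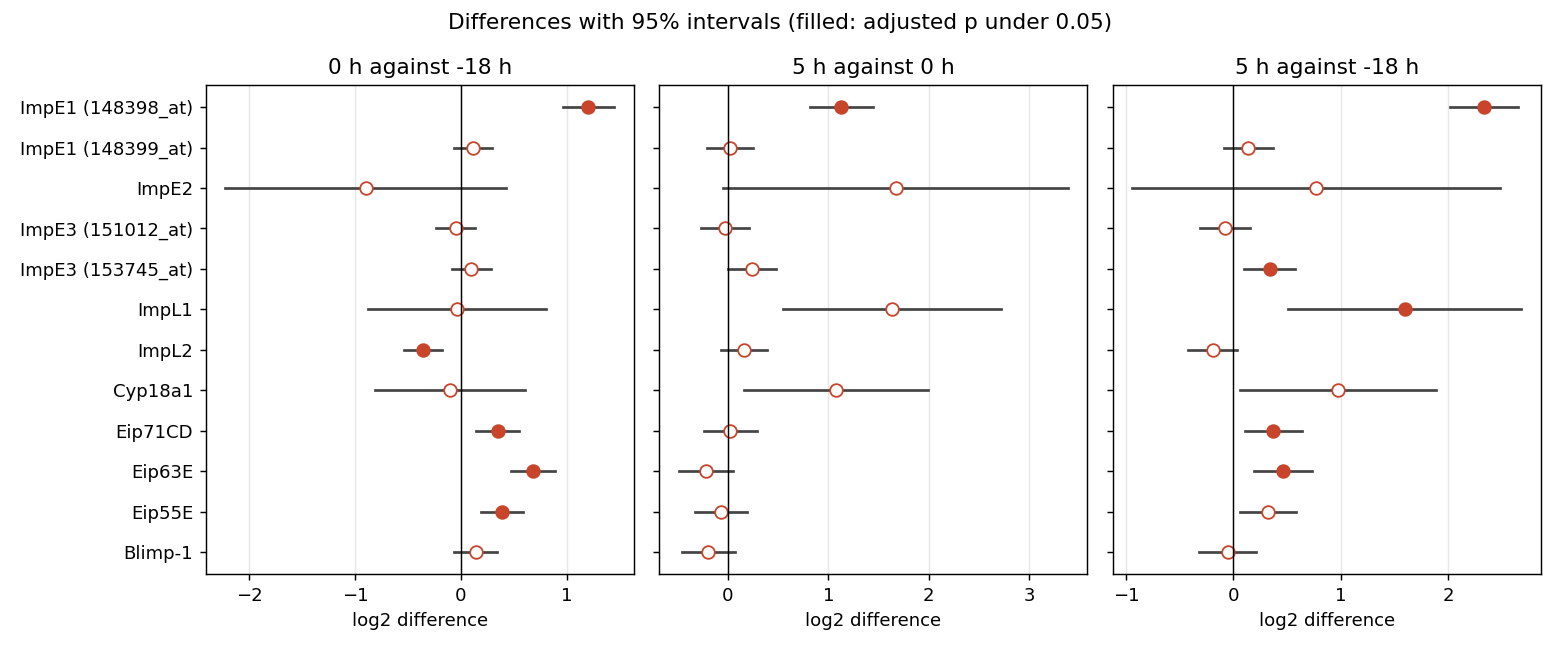
Fitted log2 difference with its 95% interval for each of the 12 probe sets in the comparisons of 0 h with -18 h, 5 h with 0 h and 5 h with -18 h. Filled points passed the adjusted threshold of 0.05, and ImpE1 (148398_at) is the 1 probe set filled in all 3.

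Between 0 h and -18 h, 5 of the 12 probe sets passed (ImpE1, Eip63E, Eip55E and Eip71CD higher, ImpL2 lower), against 25.5% of all probe sets (13.6% higher and 11.9% lower), and 3 had groups that did not overlap, against 11.3%. Between 5 h and 0 h, 1 passed (ImpE1, higher), against 3.77% (2.36% higher), and 1 did not overlap, against 8.49%. Between 5 h and -18 h, 5 passed, all higher (ImpE1, ImpL1, Eip63E, Eip71CD and ImpE3), against 20.0%, of which 11.0% were higher, and 4 did not overlap, against 20.4%. The 3 comparisons share arrays. The median difference of the 12 was 0.11, 0.09 and 0.36 in these comparisons, and that of all probe sets was -0.02, -0.04 and -0.07. ImpE2, Cyp18a1 and Blimp-1 were called in no comparison. Markers of several cell types moved with the 0 h calls. The glial marker gene repo averaged 7.70 ± 0.457 at 0 h against 6.66 ± 0.385 at -18 h (SD over 7 arrays each, log2 difference 1.04, limma adjusted p = 0.000142), while of all 8 glia markers 1 was higher and 2 lower, and the mean of the list ran from 5.14 to 5.72 at 0 h and from 5.40 to 5.77 at -18 h. Of 9 neuroblast and cell cycle markers 3 were lower at 0 h, with a list mean of 4.52 to 4.89 at 0 h and 4.95 to 5.14 at -18 h. Of 5 fat body markers 1 was higher and 2 lower at 0 h, the storage protein gene Lsp2 (-1.51, adjusted p = 0.00616) and the odorant-binding protein gene Obp99b (-2.01, adjusted p = 0.00739), with a list median of -1.25. The mean of that list ran from 6.01 to 7.74 at 0 h and from 6.63 to 8.97 at -18 h, and it was 7.27, 8.89 and 7.76 in 5 h arrays 1, 2 and 3, where 2 of its genes lay at least 1 log2 unit above both other arrays in array 2. The part of these cell types, and of the mushroom body markers that rose or fell, in the calls was not tested.

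Other genes of the ecdysone response were called lower in the step from 0 h to 5 h, in which ImpE1 was called higher. Of 19 measured receptor and response genes 5 were higher and 2 lower at 0 h than at -18 h, beside 13.6% and 11.9% of all probe sets. At 5 h against 0 h 0 of the 19 were higher and 7 lower. Over all probe sets 3.77% were called in that comparison in either direction, with 2.36% higher. Sox14, a transcription factor gene needed for pruning, rose by 1.91 at 0 h and was lower at 5 h than at 0 h (difference -2.29, limma adjusted p = 3.33e-07). The transcription factor gene vri (2.42 at 0 h, then -1.49) and the nuclear receptor genes Hr78 (2.21, then -0.85) and Hr4 (0.98, then -0.79) had differences of the same signs, and all of these passed. At 5 h against -18 h, 2 of the 19 were higher and 3 lower, beside 20.0% of all probe sets called. Among them were Hr78 (1.36), vri (0.93), br (-2.07) and EcR (-1.57).

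For the hormone itself, 10 genes of synthesis, uptake and breakdown were measured beside Cyp18a1. At 0 h against -18 h 3 were higher, namely ecd (log2 difference 1.59, limma adjusted p = 3.57e-11), the steroid-transport gene Start1 (1.40, adjusted p = 9.2e-09) and the sterol-trafficking gene Npc1a (0.76), and 1 was lower, the ecdysone importer gene Oatp74D (-1.82, adjusted p = 3.03e-07). The importer averaged 3.49 at 0 h and 5.30 at -18 h. By limma 0 of the 10 were called between 5 h and 0 h, with 1 at an unadjusted p under 0.05, and the same counts of 3 higher and 1 lower came at 5 h against -18 h. Over all probe sets, 25.5% were called at 0 h against -18 h, 3.77% at 5 h against 0 h and 20.0% at 5 h against -18 h.

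Among themselves, some pairs of probe sets kept their likeness without 5 h array 3 and some did not. The pairs named here are a selection made after the values were seen, and many other pairs had little likeness with or without it. ImpE1 (148398_at) correlated with Eip63E at Pearson's r = 0.64 over the 17 arrays and at 0.67 over the 16 without that array, with Eip71CD at 0.62 and 0.65, and with Eip55E at 0.57 and 0.69. Eip55E correlated with Eip63E at 0.63 and 0.65 and with Eip71CD at 0.56 and 0.57, and ImpL2 ran against Eip63E at -0.62 and -0.62. In contrast, ImpE2 correlated with ImpL1 at 0.71 over the 17 arrays and at 0.06 over the 16, and with Cyp18a1 at 0.73 and 0.25. ImpL1 and Cyp18a1 correlated at 0.98 with it and at -0.21 without it. The arrays share their groups, so these values are descriptions.

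Over the 17 arrays, the genes most like ImpE1 (148398_at) by Pearson's r were CG31676 (0.97), CG14275 (0.97) and CG31344 (0.95), and these values were 0.96, 0.96 and 0.94 without 5 h array 3. Those most like Eip63E were CG8155 (0.97), Kpc1 (0.96) and lqf (0.96), and those most like Eip71CD were RfC38 (0.89), Rbf (0.88) and NC2beta (0.88), also little changed without that array. For ImpE2 they were Neurochondrin (0.88), Spn43Aa (0.85) and Ugt36D1 (0.84), which came to 0.78, 0.70 and 0.67 without it. The likeness of ImpL1 to CG3355 (0.99) and St4 (0.98) dropped to 0.69 and 0.54, and that of Cyp18a1 to CG14107 and CG5171 (0.98 each) to 0.38 and 0.31.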

How the data were processed

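Each deposited value is the log2 of an RMA summary of 1 probe set on 1 array. Per the submitters' processing notes, the authors ran RMA with Affymetrix Expression Console. The sources used here do not give versions or say whether all arrays were normalised together. RNA of about 22 ng was amplified in 2 rounds, per the labels' protocols, which can compress or distort low levels. Precision is limited by the number of arrays. All 17 columns were used as deposited, and 44 of 14010 probe sets are controls and were left out of the tests. Of the 13966 tested, 12443 have 1 symbol, 327 several and 1196 none. The RefSeq gene table gave current names and neighbours. No coordinates or sequences are given.

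A model with 1 mean per group was fitted to all 17 arrays by lmFit and eBayes of limma 3.58.1 (R 4.3.3), two-sided, with Benjamini and Hochberg adjustment over all 13966 probe sets and a threshold of 0.05. Every adjusted p is limma's. The code was tested on simulated data. Lists and likeness use the probe set with the highest mean per gene. Named were all members, from each pathway list at most the 4 genes of smallest p per comparison, the 3 most like genes of each member with a range of at least 1 log2 unit, and the 5 genes with the largest gap in 5 h array 3. The kinase list, EcR, InR, SelR, CycY, ftz-f1, phm, sals and the cell type markers named were added after their values were seen where that rule did not give them. The members and all lists were chosen with earlier results of these data known. The alternatives were other normalisation, filtering, fitting and blocking, arrays left out, and within-set fits.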

Additional observations from a re-analysis of the deposited data

How the results depend on the processing

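ImpE1 (148398_at) kept its calls in all 3 comparisons under every alternative run. Over 29 settings and 1011 single-probe-set values, 939 kept direction and call, 37 lost the call, 9 gained one and 26 changed sign, the last all in uncalled differences. At 0 h against -18 h 5 probe sets passed, and 3 within the lower spike-in set. At 5 h against 0 h 1 passed, with 1 to 2 when single arrays were left out. At 5 h against -18 h 5 passed, with 3 to 5 when single arrays were left out (3 without larval array 1 or 2 or 5 h array 2 or 3), 2 with the spike-in sets blocked (ImpE1, and ImpL2 at -0.31, adjusted p = 0.05), 1 within the lower spike-in set, and 2 without the 4 arrays with Cpr78E signal, a setting chosen after seeing the data. Arrays of the same replicate number were not clearly alike across groups. Same-numbered deviations correlated at -0.28 to 0.37, and 1 of 7 arrays at 0 h and 0 of 3 at 5 h were most like their own number. Whether same-numbered pools were prepared together was not tested. With the replicate block 5, 1 and 4 probe sets passed in the 3 comparisons, where ImpL1 (1.57, adjusted p = 0.0576) and Eip63E (0.33, 0.111) lost and Eip55E (0.36, 0.0346) gained the call at 5 h against -18 h. Signs changed as follows, and the cause was not tested. At 0 h against -18 h they changed for ImpL1 (0.0068 within the lower spike-in set and 0.013 with quantile normalisation) and ImpE3 151012_at (0.047 within the lower set, and -0.091 to 0.012 with single arrays left out). At 5 h against 0 h they changed for Eip71CD (-0.014 with the spike-in block, -0.043 to 0.078 with single arrays left out), Cyp18a1 (-0.067 to 1.68, and -0.067 without the Cpr78E arrays), ImpE1 148399_at (-0.036 to 0.088), ImpE3 151012_at (0.032 with the spike-in block, 0.019 with quantile normalisation, -0.075 to 0.013 with single arrays left out) and Eip55E (-0.20 to 0.052, and 0.052 without the Cpr78E arrays). At 5 h against -18 h they changed for Cyp18a1 (-0.17 to 1.57, and -0.18 without the Cpr78E arrays), Blimp-1 (0.065 with the spike-in block, 0.077 within the lower set, -0.11 to 0.0013 with single arrays left out), ImpE3 151012_at (0.0043, 0.047 and 0.014 with the spike-in block, within the lower set and with quantile normalisation) and ImpE2 (-0.77 to 1.56). Probe sets that were dim by group mean (both of ImpE3 and that of Cyp18a1 at all times, ImpE2 and ImpL1 at -18 h and 0 h) limit what a missing call can show. ImpE2 and ImpL1 were as low in 5 h arrays 1 and 2, apart from array 3. With 3 arrays at 5 h, intervals are wide where 1 array stands apart. The model estimates 1 spread per probe set over all 3 groups, so such an array also widens the interval between the other groups. For ImpL1 the SE was 0.40 at 0 h against -18 h, where the SDs were 0.14 and 0.07. It was 0.52 at 5 h against -18 h, where the SD at 5 h was 2.36.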

Other observations

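Array 3 of the 5 h group mostly lay on the same side of the 0 h range as the other 5 h arrays where both of these lay at least 1 log2 unit outside it. Few probe sets met that margin. In 16 probe sets both other 5 h arrays lay at least 1 log2 unit below the lowest 0 h array, and array 3 lay below that array in all 16. In 12 both others lay that far above the highest 0 h array, and array 3 lay above it in 11. Counted in the same way, array 1 lay below in 18 of 18 and above in 12 of 13. Array 2 lay below in 15 of 15 and above in 11 of 11. The distance of array 3 differed in sals, an actin regulator gene. It read 9.03 in array 3, against 6.50 and 6.01 in 5 h arrays 1 and 2 and 9.43 to 10.34 at 0 h. Sox14 read 6.28 in array 3, against 6.62 and 6.27 in 5 h arrays 1 and 2 and 8.28 to 9.39 at 0 h. The neuropeptide gene Ms went the other way: its 8.24 in array 3 was above the 4.48 to 7.81 of the 0 h arrays, while 2.79 and 3.60 in arrays 1 and 2 were below them, and at -18 h it ran from 5.59 to 8.82. In 5 h array 1, CG3355 (5.10) and Cpr78E (5.16) exceeded the highest 0 h arrays (4.14 and 4.44), as ImpL1 did there.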
